A study of Mus musculus with 48 samples.

Results

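The T cell receptor and its coreceptors were followed through 10 genes of the 34586 in the UMI matrix, listed by name: the CD3 chains Cd3d, Cd3e and Cd3g, the constant regions Trac, Trbc1, Trbc2 and Trdc, and the coreceptor chains Cd4, Cd8a and Cd8b1. All 10 genes were present in the matrix. A UMI is a molecular tag that counts 1 captured transcript once, and CPM below is the UMIs of a gene per 1000000 UMIs of the same cells. Arthritis had been induced in male DBA1/J mice, a strain prone to collagen-induced arthritis (CIA), and single cells of 5 organs were sequenced by Seq-Well, in which each cell shares a microscopic well with a barcoded bead. The 48 samples held 13240 cells of 10 mice, of which 12096 cells carried 1 of 13 deposited cell type labels.

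The 6 CIA mice had received 100 µg of bovine type II collagen in complete Freund's adjuvant and a booster in incomplete adjuvant on day 20, and the 4 healthy mice had received PBS. All were 8 to 12 weeks old. The mice S5, S6 and S8 had mild arthritis (scores from 2 to 5) and S1, S2 and S3 severe arthritis (score 8). The mild mice and the healthy mice H4, H6 and H7 belonged to one experiment, and the severe mice and H3 to another, so that severity and experiment cannot be told apart. Joint gave 3 healthy and 5 CIA samples, and lung, muscle, skin and spleen 4 and 6 each, the organs being taken from the same animals. A sample held 30 to 1989 labelled cells, 17748 to 1645734 UMIs and 0 to 550 cells labelled T cells, and a cell had a median of 675 UMIs. Of 13164 distinct barcodes, 59 occurred in more than 1 sample. Red blood cells had been lysed in 6 of the 10 muscle samples (4 CIA and 2 healthy) and in all spleens.

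The T cell receptor binds antigen, a peptide held by an MHC molecule in the case of the alpha-beta receptor, through a pair of variable chains. The pair is alpha with beta in most T cells and gamma with delta in a smaller lineage enriched in skin and other barrier tissues. These chains have almost no intracellular part, so the receptor signals through the CD3 chains and Cd247. The coreceptor CD4 binds MHC class II and marks helper and regulatory T cells, CD8 (an alpha and a beta chain) binds MHC class I and marks cytotoxic T cells, and both bring the kinase Lck to the receptor. NK cells, which are related lymphocytes, lack a rearranged receptor, although CD3 chain transcripts are known in some of them.

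The genes for the beta constant region lie in tandem, and the stretch where their coding sequences differ most is shown because the split of reads between Trbc1 and Trbc2 depends on it. Over 518 coding bases they shared 495 (95.56% identity), and 19 of the 23 differences fell in the last 125 coding bases, in exons 3 and 4. The sequences are those of the Ensembl annotation of GRCm38, chromosome 6, plus strand, with capitals at the bases that differ between the genes. The stretch lies at 41539229 to 41539335 and 41539645 to 41539662 in Trbc1, and at 41547772 to 41547878 and 41548161 to 41548178 in Trbc2.
Trbc1: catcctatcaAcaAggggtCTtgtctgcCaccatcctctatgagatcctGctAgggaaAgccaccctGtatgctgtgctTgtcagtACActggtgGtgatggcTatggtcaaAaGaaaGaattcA
Trbc2: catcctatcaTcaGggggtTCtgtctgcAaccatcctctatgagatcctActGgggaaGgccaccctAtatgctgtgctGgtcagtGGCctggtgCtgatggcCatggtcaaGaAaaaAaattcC
A read over bases that the genes share could belong to either, while the transcripts after the coding part, where a method that primes at the tail captures many reads, were 55.11% identical. Which reads were counted is not given in the sources used here, so the split between Trbc1 and Trbc2 is uncertain.

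Among the CD3 chains, Cd3d and Cd3g start 1355 bases apart and point away from each other, and their promoters are shown because the joint granulocyte-labelled cells had Cd3d and no Cd3g. The 250 bases upstream of each start are those of RefSeq on GRCm38.p6, 5′ to 3′ on the strand of the gene, with capitals at a match to the C/EBP-like pattern TTNNGNAA. The Cd3d stretch is chr9:44981536-44981785 on the plus strand and the Cd3g stretch is chr9:44980432-44980681 on the minus strand.
Cd3d: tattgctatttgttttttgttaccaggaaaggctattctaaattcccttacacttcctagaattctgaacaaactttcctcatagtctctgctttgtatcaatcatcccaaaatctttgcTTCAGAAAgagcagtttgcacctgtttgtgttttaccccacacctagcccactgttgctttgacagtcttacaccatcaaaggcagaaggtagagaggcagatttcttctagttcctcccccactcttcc
Cd3g: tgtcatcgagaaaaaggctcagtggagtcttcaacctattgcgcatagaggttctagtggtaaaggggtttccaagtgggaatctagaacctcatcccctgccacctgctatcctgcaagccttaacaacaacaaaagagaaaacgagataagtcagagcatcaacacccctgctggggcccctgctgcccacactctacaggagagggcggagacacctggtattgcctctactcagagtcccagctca
The pattern occurred 1 time in Cd3d and 0 times in Cd3g and Cd3e, on either strand, and was present in 36.85% of 32851 promoter windows of 300 bases. It occurred 2 times in Cd8a, of which granulocyte-labelled cells had no UMI. Whether the pattern bears on Cd3d in these cells was not tested. The E-box CANNTG was found 1, 3 and 1 times in Cd3d, Cd3g and Cd3e (66.22% of windows) and the ETS core GGAAG 2, 0 and 3 times (64.07%). The RUNX core TGTGGT was in none of these 3 windows (14.05%). The gene bodies are Cd3d at 44981786 to 44987339, Cd3g at 44969572 to 44980431 and Cd3e at 44998740 to 45009627 of chromosome 9, Trac at 54220521 to 54224206 and Trdc at 54142851 to 54148868 of chromosome 14, and Cd4, Cd8a and Cd8b1 on chromosome 6. Cd3e overlaps the annotated genes Gm48719 and Gm48720, and Trdc overlaps Gm43434 and the variable segment Trdv5. Whether the counting used the strand is not given in the sources used here, so the counts of Cd3e and Trdc are uncertain to that extent.

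The beta chain constant regions were the most detected members and the coreceptors the least. Trbc2 gave 1472 UMIs in 969 labelled cells, Trbc1 1079 UMIs in 757 cells and Trac, the alpha chain, 576 UMIs in 437 cells. Of the CD3 chains, Cd3d gave 829 UMIs in 665 cells, Cd3g 424 in 356 and Cd3e 223 in 186. Trdc, the delta chain, gave 131 UMIs in 103 cells. The coreceptors stood at 74 UMIs for Cd4, 38 for Cd8a and 76 for Cd8b1, in 67, 36 and 66 cells, so that what follows on coreceptors rests on few counts. Cells labelled T cells held 51.91% of the Trdc UMIs and less than that of every other member, with 41.3% for Trbc2, 44.79% for Trac, 40.81% for Cd3e, 37.84% for Cd4 and 18.42% for Cd8a. Cells labelled NK cells held 24.25% of Trbc2, 30.9% of Cd3g, 34.21% of Cd8a and 40.79% of Cd8b1.

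By organ, muscle and spleen carried nearly all of these transcripts. The alpha-beta sum (Trac, Trbc1 and Trbc2 over all labelled cells) ranged over mice from 242.4 to 705.1 CPM in spleen (median 464.0) and from 0 to 1101 CPM in muscle (median 408.6). It ranged from 56.34 to 262.9 CPM in lung (median 152.0), from 0 to 91.24 in skin (median 50.37) and from 0 to 47.77 in joint (median 7.801). Spleen and muscle overlapped, muscle being the more spread, while every joint sample lay below every spleen and every lung sample. The CD3 sum ranged from 120.9 to 278.3 CPM in spleen, 0 to 461.2 in muscle and 0 to 104.1 in joint, and in joint 153 of its 159 UMIs were Cd3d. The CD8 chains gave 74 UMIs in spleen and 40 in muscle. None was found in 2230 joint cells, 814 lung cells or 1167 skin cells, which allows shares of up to 0.1345%, 0.3686% and 0.2571% of cells with a UMI (3 counts over the cells, counting error only). Cd4 gave 42 UMIs in muscle, 29 in spleen, 2 in skin, 1 in joint and 0 in lung. In these sums over cells, fewer T cells and less RNA per T cell cannot be told apart.

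**Figure D1:**
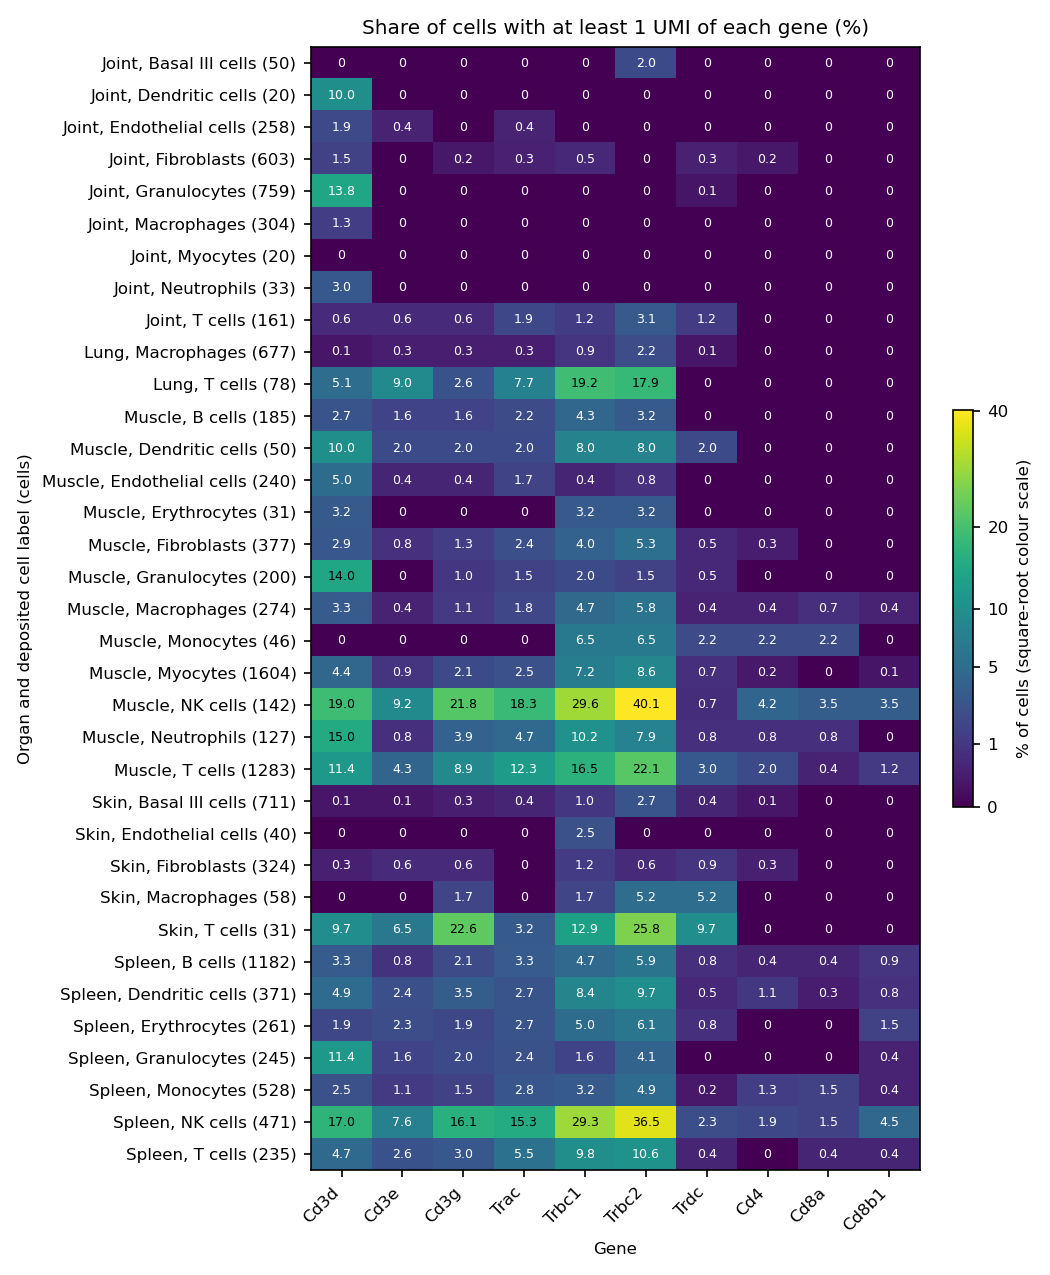
Percent of cells with at least 1 UMI of each member (columns) in the 35 groups of organ and deposited label that had at least 20 cells (rows), on a square-root colour scale. The NK-labelled cells of spleen and muscle have the highest shares for Trbc2 (36.5% and 40.1%), and the joint granulocytes have Cd3d and none of the other CD3 and alpha-beta chains.

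The deposited labels did not follow the receptor genes. The authors had matched the cells to bulk expression references and used marker genes beside that, so the members may have taken part in the labels. In spleen the alpha-beta sum was highest in NK-labelled cells, at 1087 to 2462 CPM (median 1811, 9 mice with at least 10 such cells), followed by T-labelled cells at 207 to 1311 CPM (median 499.2, 6 mice). Dendritic-labelled cells (median 243.8 CPM), B-labelled cells (237.0), monocytes (147.0), erythrocytes (134.9) and granulocytes (57.77) came next. In mice with both labels, NK-labelled cells were above T-labelled cells in 5 of 5, whereas T-labelled cells were above dendritic-labelled cells in 1 of 3 and dendritic- above B-labelled cells in 3 of 6, so that these had no order beyond the spread over mice. In muscle NK-labelled cells held 2091 to 3080 CPM (median 2547, 4 mice), T-labelled cells 0 to 1707 (914.0, 6 mice), neutrophils 184.8 to 771.0 (603.2) and endothelial cells 0 to 30.4 (0). The shares of cells gave the same order in spleen: Trbc2 was found in 36.5% of NK-labelled, 10.6% of T-labelled and 5.9% of B-labelled cells, B cells being a type that should lack it. Thinned to 400 UMIs per cell, these shares were 25.6%, 6.118% and 3.873%. The median depths were 589, 793 and 587.5 UMIs. The exact 95% intervals of the unthinned shares, which cover counting error only, were 32.16% to 41.05%, 7.004% to 15.3% and 4.645% to 7.423%, so that T- and B-labelled spleen cells were close and NK-labelled cells stood above both. In muscle the Trbc2 shares were 40.14%, 22.06% and 3.243% in NK-, T- and B-labelled cells.

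Within mice the alpha-beta and CD3 sums were mostly higher under the NK label, and Trdc was not in muscle (57.68 CPM in T-labelled and 11.77 CPM in NK-labelled cells, pooled). With at least 5 cells of each label, the alpha-beta sum was higher in NK-labelled than in T-labelled spleen cells in 8 of 8 mice, at 1209 to 2462 CPM (median 1699) against 166.6 to 1311 (median 499.2). It was also higher in 4 of 4 mice in muscle, where NK-labelled cells held 2091 to 3080 CPM and T-labelled cells 442.1 to 1247. The CD3 sum was higher in NK-labelled cells in 7 of 8 and 4 of 4 mice. Because the labels were drawn from the same cells, these are descriptions and carry no test. Of 620 cells that had UMIs of at least 2 of Cd3e, Cd3g, Trac, Trbc1 and Trbc2, 261 were labelled T cells (14.6% of that label) and 201 NK cells (31.9%), with 45 B-labelled cells (3.28%). In spleen 148 of 471 NK-labelled cells (31.42%) and 19 of 235 T-labelled cells (8.085%) met this, and in muscle 53 of 142 (37.32%) and 217 of 1283 (16.91%).

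**Figure D2:**
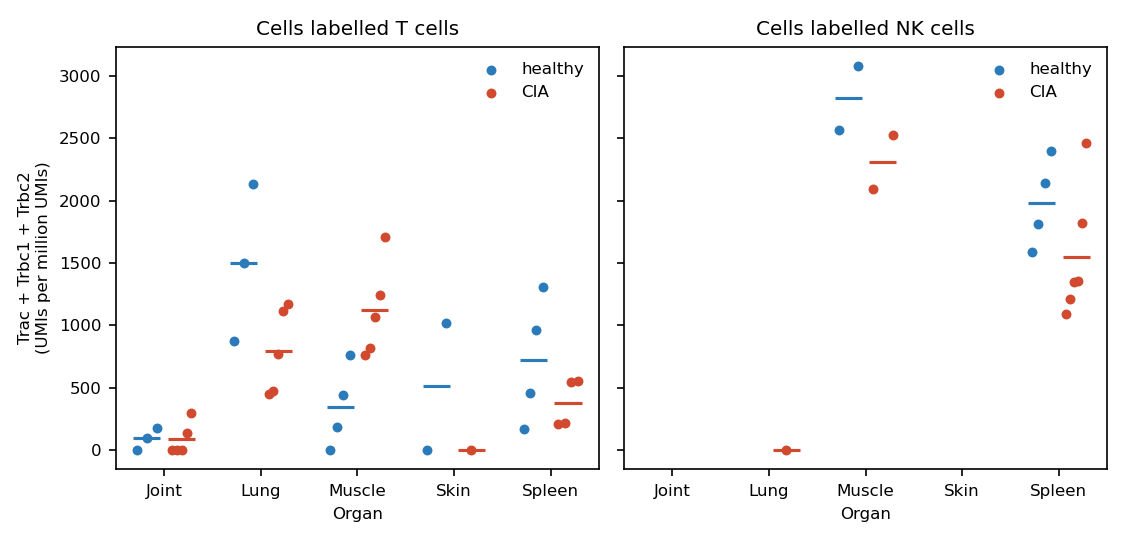
Sum of Trac, Trbc1 and Trbc2 in CPM for each mouse with at least 5 cells of the label, in T-labelled and NK-labelled cells of spleen and muscle, with a line at the mean. NK-labelled cells lie higher in each of the 8 spleens and 4 muscles that had both.

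The markers of NK cells were present in the spleen group as well. A list of 9 NK markers, among them Ncr1 (an activating receptor of NK cells) and the killing proteins Gzma and Prf1, summed to 1719 CPM in NK-labelled and 488.0 CPM in T-labelled spleen cells, and to 588.5 and 139.6 CPM in muscle. A list of 16 T cell markers, which holds the 6 alpha-beta and CD3 members, summed to 3759 CPM in NK-labelled and 758.2 CPM in T-labelled spleen cells, and to 5014 and 2310 CPM in muscle. Within the NK-labelled spleen cells, the 148 cells with 2 or more of the 5 receptor genes had 988.2 CPM of the NK list and the 188 cells with none had 2414 CPM. The T markers other than the members stood at 1594 and 1053 CPM in the same cells. The cells with receptor chains thus had less of the NK list and more of the other T markers than their neighbours under the same label, which is used below as deposited.

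In joint the T label held almost no receptor transcripts. The 161 T-labelled joint cells (median 826 UMIs) had 1 UMI each of Cd3d, Cd3e and Cd3g, 4 of Trac, 2 of Trbc1, 6 of Trbc2, 3 of Trdc and none of Cd4, Cd8a or Cd8b1. Of the 16 T markers 15 had a UMI, summing to 274.5 CPM, and Cd247 was at 0. The 16 markers, Cd3d among them, summed to 65.97 to 193.8 CPM in the joint fibroblasts, endothelial cells, granulocytes and macrophages. In the 20 myocyte-labelled joint cells they summed to 672.1 CPM, above the T-labelled cells. A list of 6 granulocyte markers had a UMI in 97.52% of the T-labelled cells (17600 CPM), but also in 94.2% of joint fibroblasts and 95.72% of joint macrophages, so it did not set them apart. The T-labelled joint cells therefore carried the label with few of its receptor transcripts. In the 6 joint mice with at least 10 such cells Trbc2 stood at 0, 0, 0, 76.47, 96.74 and 98.94 CPM, and in the 6 muscle mice at 0, 217.5, 283.2, 464.2, 602.6 and 864.8 CPM, with overlap only through the muscle of H4 at 0. Pooled, T-labelled joint cells had 0.0634 times the Trbc2 level of muscle (exact 95% interval 0.0232 to 0.139, counting error only) and 0.0318 times the Trbc1 level (0.00384 to 0.116, from 2 joint UMIs).

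Fitted across 836 genes with edgeR's quasi-likelihood test, 2 members, Trbc1 and Trbc2, passed the filter on low counts between joint and muscle T-labelled cells. They passed through muscle alone, where they are high, so that a lower joint value was fixed by the filter and their calls (2 of 2, where 1.32% of genes were called at a Benjamini-Hochberg adjusted p under 0.05) are given as a description. The log2 fold changes were -4.83 (SE 0.95, adjusted p = 0.00969) for Trbc1 and -3.70 (SE 0.83, adjusted p = 0.022) for Trbc2, and depend on the prior count because most joint sums were at 0. Both calls were lost when the mouse was a block (adjusted p = 0.339 and 0.793), when CIA S3 was left out (0.0505 and 0.103) and when CIA S5 was left out (0.0576 and 0.0804), and Trbc2 also without healthy H6 (0.0548). T-labelled spleen cells had 0.245 times the pooled Trbc2 level of muscle (0.167 to 0.349) and 0.403 times the Trbc1 level (0.278 to 0.569). Over mice, 0 of these 2 members were called by edgeR, where 1.67% of genes were. At an unadjusted p under 0.05 it was 1 of 2 members and 19.6% of genes, with log2 fold changes of -1.58 for Trbc2 (SE 0.61, adjusted p = 0.158) and -0.996 for Trbc1 (SE 0.57, adjusted p = 0.350).

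Cd3d was found in granulocyte-labelled cells mostly without its partners in the same cell. Of 1207 such cells, 161 (13.34%) had a Cd3d UMI, and 3 of those 161 (1.863%) also had any of Cd3e, Cd3g, Trac, Trbc1 and Trbc2, against 68.48% of Cd3d-positive T-labelled and 82.41% of Cd3d-positive NK-labelled cells. In joint granulocytes, 105 of 759 cells had Cd3d (13.83%, exact 95% interval 11.46% to 16.5%), with a median depth of 830 UMIs. No UMI of the 5 other genes was found there, which allows a share of up to 0.3953% of cells for each. Joint macrophages, with a median of 819 UMIs, had Cd3d in 4 of 304 cells (1.316%). The Cd3d share in granulocytes was close in muscle (28 of 200 cells) and spleen (28 of 245 cells, 11.43%). There any of the 5 other genes was also found, in 12 and 20 cells (6.0% and 8.163%). Neutrophil-labelled joint cells had Cd3d in 1 of 33 cells and 0 UMIs of the 5 others. Of 127 neutrophil-labelled muscle cells, 19 had Cd3d (14.96%) and 28 any of the others (22.05%). Over the samples with at least 10 granulocytes the Cd3d share of granulocytes ran from 0% in the joint and spleen of S3 to 17.81% in the muscle of H7. The joint of S5 gave 78 of the Cd3d-positive granulocytes. Cd3d-positive and Cd3d-negative granulocytes had medians of 932 and 834 UMIs and alike granulocyte marker sums of 399100 and 392600 CPM. Ltf (lactoferrin, of secondary granules) was in 85.09% and 79.92% of them and Fcnb (ficolin) in 21.74% and 30.88%. In joint, 130 of the 153 Cd3d UMIs lay in granulocyte-labelled cells and 1 in T-labelled cells, so sums over the CD3 chains are read beside the alpha-beta sum.

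The coreceptors were found mostly beside receptor chains in T- and NK-labelled cells, and Cd4 and Cd8a mostly apart from them in myeloid labels. In T- and NK-labelled cells, 33 of 41 cells with Cd4 (80.49%), 12 of 18 with Cd8a and 29 of 42 with Cd8b1 also had a CD3 or alpha-beta UMI. In monocyte- and dendritic-labelled cells, where CD4 and CD8 alpha are also known on some subsets, it was 2 of 12 with Cd4 (16.67%), 1 of 10 with Cd8a and 2 of 5 with Cd8b1. Cd4 and a CD8 chain met in 1 cell of all 12096, a B-labelled one, and Cd8a and Cd8b1 met in 1 cell although they form 1 dimer. Trbc1 and Trbc2 met in 306 cells. Among the 620 cells with at least 2 receptor genes, 22 had Cd4 and 32 a CD8 chain.

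The division between Cd4 and CD8 transcripts rested on few UMIs in each organ. Cd4 made up 28 of 50 coreceptor UMIs in muscle T-labelled cells (56.0%), 42 of 82 in all muscle cells (51.22%), 29 of 103 in all spleen cells (28.16%) and 10 of 43 in NK-labelled spleen cells (23.26%). Only the muscles of S2 (57.14%) and S6 (58.62%) reached 10 UMIs, and the spleens that did ran from 1 of 10 UMIs in S8 to 4 of 10 in S6. In healthy mice the pooled values were close, at 5 of 14 in muscle (35.71%, exact 95% interval 12.76% to 64.86%) and 11 of 36 in spleen (30.56%, 16.35% to 48.11%), so the higher muscle value rests on CIA mice. The difference was not tested. The spleen value includes 10 Cd4 UMIs of monocytes. NK-labelled spleen cells had Cd8b1 at 77.86 CPM and Cd4 at 31.15 CPM, and T-labelled muscle cells 16.19 and 28.33 CPM.

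Trdc outnumbered Trac in skin. Of Trdc and Trac UMIs together, Trdc made up 16 of 20 in skin (80.0%, exact 95% interval 56.34% to 94.27%), 6 of 13 in joint, 78 of 420 in muscle (18.57%), 30 of 244 in spleen (12.3%) and 1 of 10 in lung. Set against all alpha-beta genes, Trdc made up 21.05% in skin (16 of 76, 12.54% to 31.92%) and 23.08% in joint (6 of 26, 8.974% to 43.65%), so that skin did not stand above joint on that base, with 3.978% in muscle and 2.681% in spleen. The skin UMIs came from the healthy mice H4 (7), H7 (5) and H3 (1) and the CIA mice S3 (2) and S8 (1), with the other 5 mice at 0, so 2 mice carried most of them. Trdv4, a variable segment of the delta chain, gave 33 UMIs in skin, 17 of them in H4. In T-labelled cells the share was 7 of 8 in skin, 57 of 283 in muscle (20.14%) and 1 of 22 in spleen. Of 103 cells with Trdc, 3 also had Trac, 53 any alpha-beta chain and 29 a CD3 chain.

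Within muscle and spleen the Trdc share varied as much within as between the groups. In muscle it was 12.24% in S2, 21.43% in S3, 0% in S5, 26.03% in S6, 10.53% in S8, 23.33% in H6 and 18.42% in H7. In spleen it was 10.89% ± 9.10 over the CIA mice (SD, n = 5) and 13.03% ± 11.82 over the healthy ones (SD, n = 3), the groups overlapping (exact two-sided permutation test p = 0.75, adjusted 0.75 over 3 ratios, smallest possible 0.0357). Muscle (16.0% ± 9.03, SD, n = 7) and spleen (11.7% ± 9.41, SD, n = 8) also overlapped (exact permutation p = 0.374, adjusted 0.613). The difference was -1.13 percentage points within the 5 mice that had both organs (exact p = 0.875, smallest possible 0.0625). The muscle of S6 held 38 Trdc UMIs together with 31 of Trdv4, 116 of Blk (a Src family kinase of gamma-delta T and B cells), 27 of Cd163l1 (a scavenger receptor of IL-17-producing gamma-delta cells) and 14 of Il17a. The joint of S5 had 3 Trdc, 4 Trdv4 and 9 Il17a UMIs. These counts are not scaled to depth and do not rank the samples. Both samples were the deepest of their organ, with 1645734 UMIs in the muscle of S6 and 1176647 in the joint of S5.

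**Figure D3:**
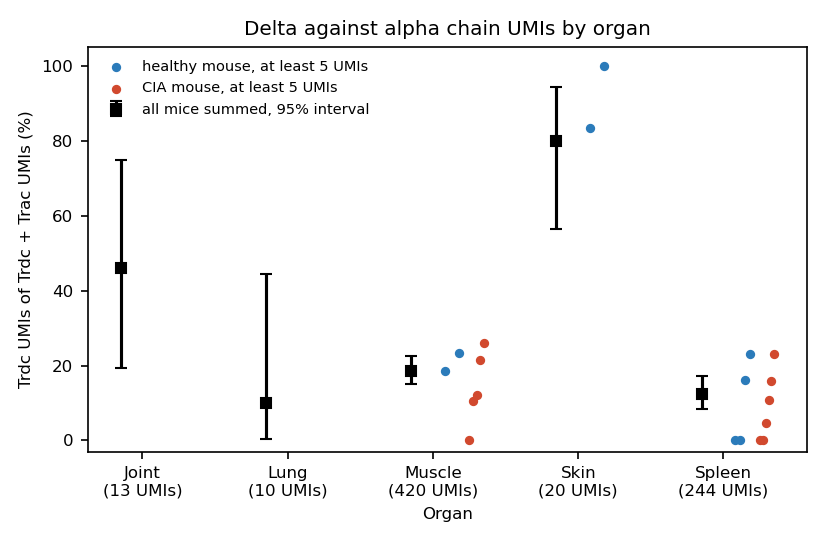
Trdc as a percent of Trdc plus Trac UMIs in all labelled cells, by organ, with the pooled value and its exact 95% interval and a point for each mouse with at least 5 such UMIs. Skin stands at 80.0% pooled, above muscle at 18.57% and spleen at 12.3%, whose mice overlap.

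Trbc1 and Trbc2, used interchangeably by the beta chain, kept a similar division, subject to the uncertain split. Trbc1 made up 41.47% of their pooled UMIs in muscle and 43.77% in spleen, and over mice 42.3% ± 5.48 (SD, n = 7) and 43.6% ± 4.79 (SD, n = 10; exact permutation p = 0.613, adjusted 0.613 over 2 ratios). In spleen the share was 45.5% ± 5.15 over the CIA mice (SD, n = 6) and 40.7% ± 2.42 over the healthy ones (SD, n = 4; exact permutation p = 0.133, adjusted 0.40). In NK-labelled spleen cells it was 45.8% ± 7.19 (SD, n = 5) and 43.7% ± 4.20 (SD, n = 4; exact permutation p = 0.683, adjusted 0.75). NK-labelled muscle cells gave 18.87% in H6 and 19.05% in H7 but 52.17% in S2 and 48.0% in S8, which with 2 mice a group was not tested.

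In spleen, Trbc2 was lower in CIA than in healthy mice before correction and missed the threshold after it. Trbc2 stood at 296.3, 218.9, 367.2 and 328.6 CPM in the healthy and at 147.1, 121.8, 167.4, 188.1, 119.6 and 188.5 CPM in the CIA spleens. The mild and severe CIA mice overlapped. The log2 fold change was -0.92 (SE 0.23, unadjusted p = 0.0013, adjusted p = 0.139 by edgeR). DESeq2 put Trbc2 past the threshold (log2 fold change -0.87, adjusted p = 0.018). Trbc1 ranged from 165.4 to 241.3 CPM in healthy and from 77.7 to 203.4 CPM in CIA mice (log2 fold change -0.58, SE 0.28, adjusted p = 0.793). The alpha-beta sum was 486.4 to 705.1 CPM against 242.4 to 489.7 CPM, with an overlap of 1 CIA mouse. Trac (-0.41), Cd3d (-0.13) and Cd3g (-0.06) gave smaller differences. Of the 5 members tested 1 was called by DESeq2, which called more of all genes than edgeR did, as given below. By edgeR 0 of the 5 members were called, where 0.137% of 2927 genes were. At an unadjusted p under 0.05 it was 1 of 5 members and 6.46% of genes. In the severe mice granulocyte-labelled cells were 10.51%, 16.14% and 14.29% of the spleen cells and NK-labelled cells 10.07%, 8.562% and 5.844%, against 0% to 2.424% and 12.4% to 21.82% in healthy mice. In the mild mice they were 1.671% to 3.356% and 17.45% to 23.12%. The part of the label shares in the Trbc2 difference was not tested. With experiment as a term Trbc2 was at -0.92 (adjusted p = 0.155), and within the experiment of the mild mice at -0.86 (adjusted p = 0.716). The other experiment had 1 healthy mouse.

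In NK-labelled spleen cells, which carry much of this signal, Trbc2 differed by -0.47 (log2, SE 0.33, adjusted p = 1.00) over 5 CIA and 4 healthy spleens. Of the 5 members tested 0 were called by edgeR and 0 at an unadjusted p under 0.05. Over 421 genes 0 were called (percent called 0), 11 at an unadjusted p under 0.05, and 3 by DESeq2.

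In muscle, the alpha-beta sum separated the samples by red blood cell lysis and not by disease, with 0 to 614.2 CPM in healthy and 29.74 to 1101 CPM in CIA mice. It was 0 to 88.23 CPM in the 4 unlysed and 335.3 to 1101 CPM in the 6 lysed samples, and the CD3 sum was 0 to 81.9 and 175.9 to 461.2 CPM. B cell markers were also higher in the lysed samples (708.4 to 2602 CPM against 144.9 to 393.1), and their part in the muscle values was not tested. Over all labelled cells, Trac (log2 fold change 0.94), Trbc1 (0.88), Trbc2 (0.72), Cd3g (0.69) and Cd3d (-0.02) gave adjusted p = 1.00 each by edgeR. Of these 5 members 0 were called, 0 at an unadjusted p under 0.05 and 0 by DESeq2, where 0.055% of 3634 genes were called. Among the lysed samples alone Trbc2 was at 0.29 and Trac at 0.56. Within the experiment of the mild mice Trac (-0.11), Trbc2 (-0.16) and Cd3g (-0.13) turned to the other sign and Trbc1 was at 0.26.

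**Figure D4:**
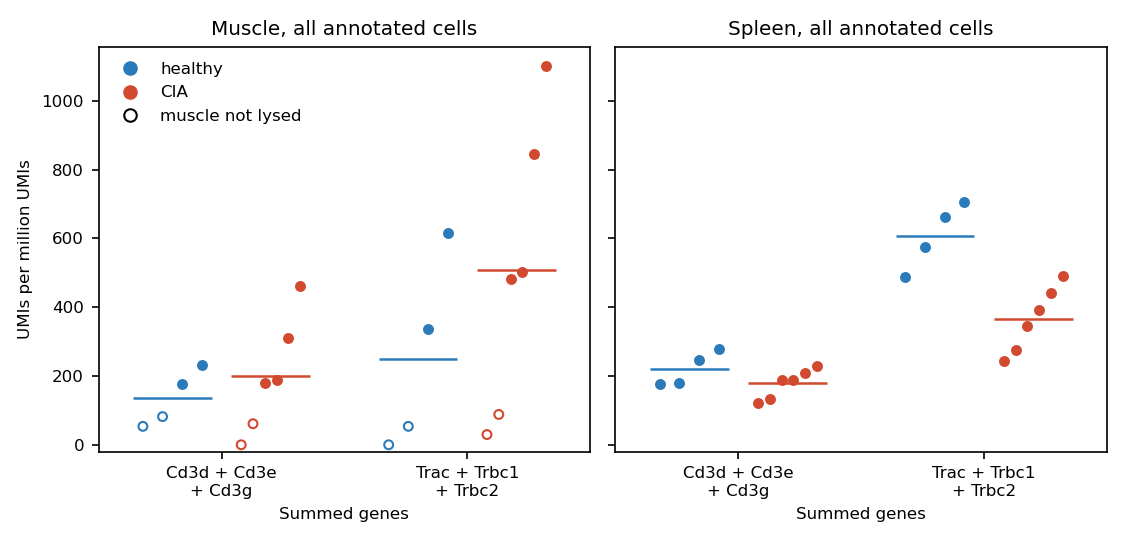
CD3 sum and alpha-beta sum in CPM over all labelled cells for each mouse, healthy and CIA, in muscle and spleen, with open circles for muscle samples without red blood cell lysis and a line at the mean. In spleen all but 1 of the CIA alpha-beta values lie below the healthy range (486.4 to 705.1), and in muscle the open circles are the lowest.

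In T-labelled muscle cells, 4 members were higher in CIA before correction and none after it, over the 3 of 4 healthy and 3 of 6 CIA mice with at least 10 such cells. Trbc2 stood at 0, 283.2 and 217.5 CPM in H4, H6 and H7 and at 602.6, 464.2 and 864.8 CPM in S2, S3 and S6. Cd3d was at 0, 119.8 and 56.13 against 267.8, 147.7 and 279.1 CPM. Trac was at 0, 130.7 and 126.3 against 290.2, 221.6 and 251.7 CPM. Trbc1 was at 0, 348.5 and 98.24 against 354.6, 379.8 and 590.3 CPM. The CIA mice S5 and S8, with 9 cells each, overlapped the healthy values. Trbc2 and Trbc1 were both at 152.6 CPM in S5, and Trac was at 0 in S8. Fitted with at least 5 cells per mouse, Trbc2 was at 1.54 (adjusted p = 0.303). By edgeR the log2 fold changes were 1.57 for Cd3d (SE 0.53, adjusted p = 0.670), 1.56 for Trbc2 (SE 0.49, adjusted p = 0.563), 1.21 for Trbc1 (SE 0.56, adjusted p = 0.785) and 1.13 for Trac (SE 0.48, adjusted p = 0.693). Of the 4 members 0 were called, by edgeR or DESeq2, where 0.0511% of 1957 genes were called by edgeR. At an unadjusted p under 0.05 it was 4 of 4 members and 6.34% of genes. H4 was at 0 for all 4, so none could pass the filter on low counts through the healthy mice alone. They passed with the CIA mice, where they are high, so these counts are given as a description. All 3 healthy mice were of the experiment of the mild mice, as was S6, and with experiment as a term Trbc2 was at 1.91 (adjusted p = 0.503). The muscle of H4 was unlysed and held 17 T-labelled cells. T-labelled cells were 79.83% and 73.14% of the cells in S2 and S3, 38.92% and 40.09% in H6 and H7 and 11.87% in S6. The erythroid list in the T-labelled cells also differed between these mice. It was at 90080, 31830 and 45710 CPM in H4, H6 and H7 and at 257.9, 5824 and 4347 CPM in S2, S3 and S6. The granulocyte list was 6895 to 14500 CPM in the healthy and 215.8 to 10920 CPM in the CIA mice. The part of either in the result was not tested.

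Shares of cells gave the same reading. After thinning to 400 UMIs, 29.48% ± 8.32 of T-labelled muscle cells in CIA and 10.99% ± 10.3 in healthy mice (SD, n = 3 each) had an alpha-beta chain, and 13.8% ± 5.33 and 3.90% ± 3.87 had a CD3 chain. Before thinning, the alpha-beta shares were 38.91%, 28.91% and 54.24% in S2, S3 and S6 and 0%, 27.78% and 16.67% in H4, H6 and H7, with 22.22% and 11.11% in S5 and S8, which had 9 cells each and were not tested. The tested groups did not overlap on either scale, and p was 0.10 in each exact two-sided permutation test, the smallest that 3 against 3 mice allow (adjusted 0.70 over 14 tests). Trdc was in 2.28% ± 1.117 and 1.05% ± 0.910 of the same cells, Cd4 in 1.08% ± 0.983 and 0.224% ± 0.387, and a CD8 chain in 1.201% ± 0.553 and 0.651% ± 0.6252 (SD, n = 3 each). In T-labelled spleen cells the alpha-beta share was 11.4% ± 5.85 in CIA and 20.1% ± 14.9 in healthy mice (SD, n = 4 each, exact permutation p = 0.343). In T-labelled lung cells it was 20.9% ± 10.0 (SD, n = 5) and 29.1% ± 6.99 (SD, n = 3, exact permutation p = 0.214), and in joint 3.95% ± 5.53 (SD, n = 5) and 5.37% ± 6.63 (SD, n = 3, exact permutation p = 0.714). The adjusted p of all tests of shares other than the first pair lay between 0.75 and 1. No member passed the filter on low counts in joint, lung or skin, nor in T-labelled cells of joint, lung or spleen, so no fold change is given there.

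The genes that act beside the receptor were counted in 6 lists, within 1 organ at a time because T-labelled cells lay mostly in muscle and NK-labelled cells mostly in spleen. As background, genes with at least 20 UMIs were compared by pooled CPM. In spleen 45.98% of 4439 genes were higher in NK- than in T-labelled cells, and in muscle 41.78% of 6338. The listed genes were counted from 1 UMI, so that their counts and the background have unlike thresholds. Of the 19 TCR signalling genes, 18 were higher in NK-labelled cells in spleen and 14 in muscle. Lck, the kinase brought by the coreceptors, stood at 33.78 CPM in T- and 336.4 in NK-labelled spleen cells and at 92.08 and 329.5 CPM in muscle, and Lat, the adaptor downstream of it, at 52.55 and 180.6 and at 179.1 and 329.5 CPM. Of the CD8 and effector genes with a UMI, 9 of 9 were higher in NK-labelled cells in spleen and 8 of 9 in muscle, with Ccl5 at 183.9 and 2283 CPM in spleen. Costimulation and checkpoint genes gave 9 of 13 and 8 of 13, naive and memory genes 9 of 10 and 7 of 10, and CD4 and regulatory genes 8 of 10 and 3 of 10. Genes of the gamma chain and gamma-delta programme gave 4 of 9 and 1 of 10. Icos, a costimulatory receptor of activated T cells, was at 18.77 and 49.83 CPM in spleen but at 195.3 and 11.77 CPM in muscle. Ccr7, the lymph node homing receptor, was at 71.32 and 80.98 CPM in spleen and at 276.2 and 58.85 CPM in muscle, so these genes differed between labels in muscle in the direction opposite to Lck. None of this was tested, since the labels come from the same cells.

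Of these lists, 1 gene passed the test in any comparison: Ptprc, the phosphatase CD45 of all leukocytes, was lower in joint than in muscle T-labelled cells (log2 fold change -1.86, SE 0.46, adjusted p = 0.0396 by edgeR). The call was lost with the mouse as a block (-1.55, adjusted p = 0.793), and without H3 (adjusted p = 0.0817), H6 (0.0548), S1 (0.229), S2 (0.178), S3 (0.109) or S5 (0.0907). In T-labelled muscle cells, 5 TCR signalling genes were tested and none was called. All 5 had a positive log2 fold change (median 0.65), with Lat at 0.81 and Lck at 0.69. Of 4 costimulation genes tested none was called, with Icos at 1.95 (SE 0.53, adjusted p = 0.371, and 2.18 with adjusted p = 0.0484 without S3), Ctla4, an inhibitory receptor, at 1.34 and Cd2, an adhesion receptor, at 0.79. Klf2, a factor of resting T cells, gave -1.09 (adjusted p = 0.675), Ccl5 -0.88 (0.23 with experiment as a term) and Gata3, a factor of T helper cells, 0.40. In spleen, Ccr7 gave -0.94 (adjusted p = 0.499) and Ccl5 -0.99, beside the -0.92 of Trbc2, and no listed gene was called. The muscle comparison of T-labelled cells had a median log2 fold change of 0.03 over all genes.

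Over the 35 groups of organ and label, the genes whose level was most like the CD3 sum were Fam65b (Pearson r = 0.7615 of log2(CPM + 10)), Skap1 (0.7532), Cd27 (0.7438), Phf20l1 (0.736) and Lat (0.7356), out of 9855 genes with at least 100 UMIs. The groups share mice and libraries, so no p is given. With Cd3d left out of the sum, the 5 most alike were Trbj2-1, a beta joining segment (0.8848), Lat (0.8839), Cd27 (0.8811), Inpp4b (0.8678) and Skap1 (0.8543). Fam65b and Phf20l1 then stood at 0.4769 and 0.5659.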

How the data were processed

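Single cells of joint, lung, muscle, skin and spleen were sequenced by Seq-Well. The authors deposited a matrix of UMI counts, not normalized, made with bcl2fastq, Picard, STAR against GRCm38 and the Drop-seq tools, together with a cell type label for most cells. The submitters' processing notes also list GRCh38 and mm9, with no versions. The labels came from denoised counts, bulk references and marker genes, so label groups are no independent test. No doublets were removed here, and cells without a label entered no comparison.

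From the deposited counts, UMIs were summed per mouse and organ, over all labelled cells or over T- or NK-labelled cells. Samples of T- or NK-labelled cells needed at least 10 such cells. For fits and shares of T-labelled cells within joint, lung or spleen they needed at least 5. The sums were fitted with edgeR 4.0.16 in R 4.3.3 (limma 3.58.1): filter on low counts, TMM scaling, quasi-likelihood test, Benjamini-Hochberg adjustment over all genes tested, threshold 0.05. DESeq2 1.42.0 was an alternative, as were library size scaling, no filter, experiment, lysis, a replicate block and each mouse left out. The organ comparison of T-labelled cells used all mice with at least 10 such cells in 1 fit. The lysis alternatives and the sums without granulocytes and neutrophils were chosen after seeing the data. Shares and ratios were compared over mice by exact two-sided permutation tests (scipy 1.17.1, numpy 2.4.6, pandas 2.3.3, Python 3.11.15, with figures by matplotlib 3.10.9), shares after thinning each cell to 400 UMIs by expectation and ratios in mice with at least 10 UMIs. Ratios within T-labelled cells were planned, but too few mice reached 10 UMIs, so they were taken over all labelled cells. Intervals are exact (Clopper-Pearson, 95%) and, like the limits for a count of 0, cover counting error only.

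The 10 genes, the gene lists and the tests were chosen with earlier results of these data known. All 10 were named. Of the lists, called genes and at most 3 further genes with most UMIs in T-labelled cells were named, and genes of like pattern were the 5 highest correlations with the CD3 sum. Genes named beyond this (Lck, Il17a, Cd163l1, Ltf, Fcnb and the genes like the sum without Cd3d) were chosen after their values were seen. The scripts were tested on simulated counts.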

Additional observations from a re-analysis of the deposited data

Results flagged for a closer look

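Of 60 groups of 4 to 10 samples tested for a sample far from the rest by Dixon's criterion, 8 held one, where chance gives about 1 in 20. Over all labelled cells these were Trdc in the joint of S6 (15.92 CPM), Trdc in the lung of H4 (7.916 CPM), Cd3d in the lung of H4 (15.83 CPM), Cd3d in the skin of S1 (8.223 CPM), Cd3d in the skin of H4 (71.76 CPM) and the CD3 sum in the skin of H4 (197.3 CPM). In T-labelled cells they were the CD3 sum in the joint of S5 (40.55 CPM) and in the spleen of H7 (786.4 CPM, from 11 cells). Most of them rest on very few UMIs, such as 1 for Trdc in both cases.

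Outside the cells compared, 1144 cells without a deposited label held 283 UMIs of the 10 genes, 5.437% of the 5205 in all cells, above what a count of 0 would allow.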

How the results depend on the processing

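Among 362 alternative values of the 23 member fold changes, 328 kept their direction and side of the threshold, 25 changed sign, 7 lost a call and 2 gained one. Of 187 alternative values of the 19 shares and ratios, 180 kept both and 7 changed sign. Of 144 for 11 named genes of the lists, 134 kept both, 8 lost a call (all Ptprc, also with RLE scaling, at an adjusted p of 0.0756), 1 gained one and 1 changed sign (Ccl5 in T-labelled muscle cells, 0.23 with experiment as a term). The cause of these changes was not tested. Genes called over all labelled muscle cells (2) became 1 with RLE scaling, 11 with DESeq2, 63 with every gene kept and 0 with plain library sizes, with experiment as a term, in the experiment of the mild mice, in lysed samples and without granulocytes and neutrophils. In spleen (4) they became 47 with DESeq2, 172 with every gene kept, 8 with experiment as a term and 0 within the one experiment, and the members called (0) became 1 with DESeq2. In T-labelled muscle cells (1) they became 2 with RLE scaling, plain library sizes or DESeq2, 28 with every gene, 5 and 0 with at least 5 and 20 cells per mouse, and 0 with experiment as a term. In NK-labelled spleen cells (0) they became 3 with DESeq2 and 15 with every gene. For joint against muscle (11) they became 25 with DESeq2 and 253 with every gene, and for spleen against muscle (14) 72 and 204, with 1 member called in the last. Cd3d in muscle (-0.02) moved to 0.21 with plain library sizes, 0.15 with every gene, 0.086 in lysed samples and 0.67 without granulocytes and neutrophils. Within the experiment of the mild mice, muscle Cd3g, Trac and Trbc2 moved to -0.13, -0.11 and -0.16. Cd3g in spleen moved to 0.066 with every gene, 0.018 with experiment as a term and 0.40 within the one experiment, and Trac in NK-labelled spleen cells to 0.060 with every gene.

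Leaving out 1 mouse at a time gave 0 to 3 called genes in muscle, 0 to 14 in spleen, 0 to 14 in T-labelled muscle cells, 2 to 31 for joint against muscle (0 to 2 members) and 1 to 41 for spleen against muscle. It gave -0.39 to 0.11 for Cd3d in muscle, -0.24 to 0.028 for Cd3d and -0.16 to 0.056 for Cd3g in spleen, and -0.30 to 0.0033 for Trac in NK-labelled spleen cells. In percentage points it gave -8.65 to 2.89 for the Trdc share in spleen, -0.780 to 3.84 for the Trbc1 share in NK-labelled spleen cells, -4.10 to 2.28 for the alpha-beta share in T-labelled joint cells, and -8.04 to 2.32 (lung) and -4.89 to 4.52 (spleen) for the CD3 share.

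The only mouse numbers found in both healthy and CIA mice are 3 and 6, which name different animals. Each same-numbered pair also belonged to the same experiment. The pairs deviated together with r = -0.1 and 0.3 in muscle and 0.17 and 0.21 in spleen, which cannot show what else they share. A replicate block gave 9 called genes in muscle and 16 in spleen, no member in either, and 0.14 for muscle Cd3d. Between organs the number is the same animal, and there the block gave 4 called genes and 0 members for joint against muscle, 0 genes for spleen against muscle, and -1.13 for the Trdc share of muscle against spleen (4.31 without it).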
